A study of Homo sapiens with 4 samples.

Results

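A set of 9 genes best known from epithelia was measured in KMS11, an established line of multiple myeloma, the cancer of antibody-secreting plasma cells. They are VIL1, EPCAM, KRT18, KRT8, MUC1, ESRP1, ESRP2, F11R and CDH1, 9 of the 62069 genes in each count file. They were picked by symbol for their epithelial roles and because several had lower values in the knockdown libraries than in the control libraries. The difference between those groups therefore chose them, and for these 9 genes it is given below as a description with no test. RNA was sequenced from 2 libraries labelled NSD2 knockdown and 2 labelled control. In all 4, cells received lentivirus with polybrene at 10 µg/mL and were collected 96 h after infection, of which 72 h followed the medium change; each TruSeq library began with 1 µg of total RNA. The sources used here give no shRNA sequence, and they do not state if equally labelled libraries stem from separate cultures, so p-values measure the spread between these libraries, which may be technical. The labels name the line as multiple myeloma, and the series title places the work in myeloma with the t(4;14) translocation, which drives NSD2, a histone H3 lysine 36 methyltransferase, from the immunoglobulin heavy chain locus.

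Epithelial cells form sheets in which cadherins and junction proteins hold neighbours together, keratins brace the cytoplasm, mucins coat the free surface and villin shapes the actin core of microvilli. The splicing factors ESRP1 and ESRP2 keep the epithelial forms of many transcripts. Blood cells lack such sheets, but single members of the group are known outside epithelia: MUC1 and F11R, for example, are made by plasma cells and leukocytes.

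The promoter of MUC1 is shown because it is the one member with both a clear level and an entry in the promoter table, and because its 250 bases before the RefSeq start (GRCh38.p14, chr1:155192916-155193165, minus strand) hold known promoter letters. Capitals mark matches to CACCTG, the E-box that ZEB and SNAI repressors bind, to GGGCGG, the GC box, and to TATAAA, the TATA box.
MUC1 promoter: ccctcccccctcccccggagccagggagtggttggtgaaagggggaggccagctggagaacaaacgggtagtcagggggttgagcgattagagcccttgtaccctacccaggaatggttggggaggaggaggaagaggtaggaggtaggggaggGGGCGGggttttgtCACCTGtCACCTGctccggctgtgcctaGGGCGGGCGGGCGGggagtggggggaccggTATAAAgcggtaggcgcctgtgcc
CACCTG began 82 and 75 bases before the start, TATAAA 24 bases before it, and GGGCGG at -96, -54, -50 and -46, the last 3 of these overlapping one another. With both strands searched, 17.5% of 27305 RefSeq windows of equal length held CACCTG, 2.55% held it at least 2 times, 11.1% held TATAAA and 42.3% held GGGCGG. These are matches of letters and say nothing of binding in KMS11.

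KRT8 and KRT18 have many processed copies elsewhere in the genome, and the stretches below show how far the letters alone can separate a KRT18 fragment from its most counted copy. They come from GENCODE 29 transcripts and show coding bases 603 to 702 of KRT18 beside the aligned bases of KRT18P34. Capitals mark the 4 bases that differ.
KRT18: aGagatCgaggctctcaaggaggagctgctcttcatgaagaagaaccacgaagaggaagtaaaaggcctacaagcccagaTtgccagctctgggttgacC
KRT18P34: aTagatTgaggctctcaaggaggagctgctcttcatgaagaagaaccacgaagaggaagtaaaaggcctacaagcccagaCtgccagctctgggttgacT
Over the whole alignment, KRT8P12 matched the KRT8 coding sequence at 90.6% of 1388 bases and KRT18P34 matched that of KRT18 at 91.6% of 1270 bases.

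NSD2, the target of the shRNA, stood at 919 and 1156 CPM (fragments scaled to a common library size, with TMM) in knockdown libraries 1 and 2, against 1121 and 1471 CPM in control libraries 1 and 2. The groups overlapped, and the log2 fold change of -0.32 (SE 0.15) did not pass the quasi-likelihood test of edgeR (adjusted p = 0.244). Depth lay between 46728940 and 55059566 counted fragments per library. All 12 plasma cell markers had fragments in every library. CD27 and FCRL5 stayed at or below 0.59 and 0.663 CPM, and CD38 had 2 fragments in knockdown library 2. The summed level of the 12 was 8237 and 9080 CPM in the knockdown libraries and 8967 and 8999 CPM in the controls. JCHAIN made up most of that sum, with 5031 and 5490 CPM in the knockdown libraries and 5575 and 5428 CPM in the controls. Of these 12, 3 were called lower and 0 higher by edgeR, against 4.19% and 1.74% of all genes tested. They were SLAMF7, with 110 and 129 CPM in the knockdown libraries and 237 and 272 CPM in the controls, GPRC5D, with 4.84 and 6.04 against 9.22 and 11.7 CPM, and CD38, with 0.29 and 0.0369 against 1.54 and 0.7 CPM. Several defining markers of epithelial tissues were at 0. Others were detected. The 10 intestinal markers summed to between 0.442 and 0.538 CPM, with CDX2, ALPI, SI, TFF3 and GUCY2C at 0 in every library. Among them LGALS4 had 0.352 and 0.276 CPM in the knockdown libraries and 0.178 and 0.276 CPM in the controls. The 9 kidney markers summed to 1.3 and 1.36 CPM in the knockdown libraries and 2.2 and 1.25 CPM in the controls. Most of this was SIX2, and CDH16, EMX2, SLC22A6 and UMOD were at 0. The 10 breast or prostate markers summed to 16 and 24.9 CPM in the knockdown libraries and 17.8 and 27.6 CPM in the controls. Most of this was ESR1, and KRT5, KRT14, TFF1 and SCGB2A2 were at 0. KRT7 had 2.27 and 2.3 CPM in the knockdown libraries and 2.95 and 2.97 CPM in the controls. GATA3 had 0.641 and 0.405 against 1.25 and 0.997 CPM. The T cell list summed to 4.84 and 5.32 CPM in the knockdown libraries and 6.43 and 5.94 CPM in the controls, and the monocyte and fibroblast lists stayed at or below 0.295 and 1.27 CPM. The part of these markers in the results below was not tested.

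Levels spanned a wide range. Per length, in FPKM (CPM per kilobase of exon), the order in the control libraries was EPCAM (18.1 to 23.5), F11R (14.1 to 14.9), MUC1 (9.03 to 11.2), ESRP1 (1.05 to 3.6), VIL1 (1.72 to 2.37), KRT18 (1.19 to 1.27), CDH1 (0.508 to 0.655), ESRP2 (0.0305 to 0.0391) and KRT8 (0.0169 to 0.0237). Neighbours in that order did not overlap, except ESRP1 and VIL1. In the knockdown libraries EPCAM, F11R, MUC1 and ESRP1 again led, at mean levels of 12.1, 8.43, 4.09 and 1.13 FPKM, and KRT18, VIL1 and CDH1 followed at 0.413, 0.288 and 0.28 FPKM. There KRT18 overlapped VIL1 and VIL1 overlapped CDH1. Among 13037 tested protein-coding genes, EPCAM ranked 2277 by mean FPKM in the controls, F11R 3225 and MUC1 4335, whereas CDH1 ranked 10739 and ESRP2 12940. EPCAM was therefore above 82.5% of these genes, F11R above 75.3% and MUC1 above 66.7%, but CDH1 above 17.6% only, and ESRP2 and KRT8 were near the limit of detection.

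**Figure D1:**
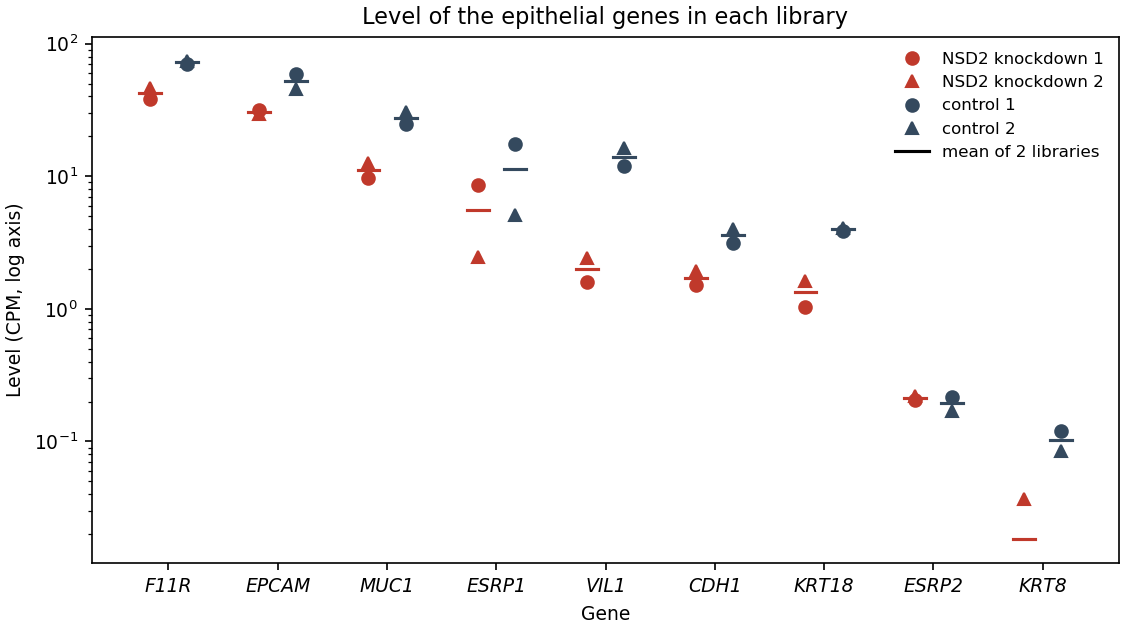
Level of each of the 9 genes in CPM (log axis), NSD2 knockdown libraries in red at left and control libraries in blue at right, circles for number 1 and triangles for number 2, with the group mean as a bar. Knockdown values lie below both control values for VIL1, EPCAM, KRT18, KRT8, MUC1, F11R and CDH1; KRT8 in knockdown library 1 had 0 fragments and no point.

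Of the 8 genes with enough counts to be tested, 6 were among the 719 genes called lower in knockdown over control at an adjusted p below 0.05 (4.19% of 17172 genes) and 0 among the 299 called higher (1.74%). The same 6 were lower without overlap between the groups, as were 26.2% of all genes tested. Since these genes were picked on that difference, neither count is a result about them. With GC content and length modelled, the calls over all genes split into 660 lower and 436 higher. Leaving out 1 library gave 1342 lower and 682 higher without control 1, 453 higher without control 2 and 173 higher without knockdown 2. The 8 tested genes, picked on this difference, had a median log2 fold change of -1.05, against -0.00165 for all genes tested. Within number 1 the log2 ratios were -0.89 for EPCAM and F11R, -1.05 for CDH1, -1.89 for KRT18 and -1.35 for MUC1, and within number 2 they were -0.64, -0.69, -1.06, -1.34 and -1.27 in the order EPCAM, F11R, CDH1, KRT18 and MUC1. In bulk RNA, fewer cells making a transcript and less of it per cell cannot be told apart.

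EPCAM encodes a surface adhesion glycoprotein that many carcinomas carry (ENSG00000119888, chromosome 2, 47572297 to 47614740, GRCh37). It stood at 31.8 and 29.3 CPM in knockdown libraries 1 and 2, against 59.2 and 45.6 CPM in control libraries 1 and 2. The groups did not overlap, and the controls differed more from each other than the knockdown libraries did. The means were 30.6 ± 1.83 and 52.4 ± 9.58 CPM (SD, n = 2 each), a log2 fold change of -0.78 (SE 0.129) or a 1.72-fold lower level. Without control 1 the log2 fold change was -0.58.

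F11R encodes the junctional adhesion molecule JAM-A, found at tight junctions and on leukocytes (ENSG00000158769, chromosome 1, 160965001 to 161008784). F11R had 38.2 and 46.2 CPM in the knockdown libraries and 70.6 and 74.5 CPM in the controls. The groups were well apart, with the knockdown mean of 42.2 ± 5.67 CPM against 72.6 ± 2.76 CPM (SD, n = 2 each). Its log2 fold change of -0.78 (SE 0.111) equalled that of EPCAM to the second decimal. CDH1 encodes E-cadherin, the calcium-dependent adhesion molecule of adherens junctions (ENSG00000039068, chromosome 16, 68771128 to 68869445). It was low throughout, with 1.51 and 1.93 CPM in the knockdown libraries and 3.13 and 4.03 CPM in the controls, or 73 and 105 fragments against 158 and 190. The groups did not overlap, and the log2 fold change was -1.05 (SE 0.225). EPCAM exceeded CDH1 per length in each library, by 51.5 and 36.9 times in the knockdown libraries and 46.2 and 27.6 times in the controls.

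KRT18 encodes a type I keratin of simple epithelia (ENSG00000111057, chromosome 12, 53342655 to 53346685), and KRT8 its type II partner, next to it on the opposite strand (ENSG00000170421, 53290971 to 53343738). KRT18 had 1.03 and 1.62 CPM in the knockdown libraries, 50 and 88 fragments, against 3.84 and 4.09 CPM in the controls, 194 and 193 fragments. The groups did not overlap, and the log2 fold change was -1.57 (SE 0.24), a 2.97-fold lower level. KRT8 was barely detected, with 0 and 2 fragments in the knockdown libraries and 6 and 4 in the controls. A floor of 3 fragments per library corresponds to 0.062 CPM in knockdown library 1, and KRT8 was too low for a test or a fold. Vimentin, the filament protein of mesenchymal and blood cells, stood far above KRT18, at 224 and 243 FPKM in the knockdown libraries and 208 and 187 FPKM in the controls.

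Fragments assigned to copies of these keratins outnumbered those of KRT8 itself. The 48 annotated KRT8 copies, 20 of them with at least 1 fragment, summed to 497 and 473 fragments in the knockdown libraries and 424 and 372 in the controls. KRT8P12 (chromosome 3, 160283235 to 160287036) took most of these, with 357 and 344 fragments in the knockdown libraries against 295 and 242 in the controls. Its log2 fold change of 0.32 (SE 0.161) did not pass the edgeR test (adjusted p = 0.277, range 0.103 to 0.707 over the alternatives). The 66 KRT18 copies summed to 88 and 83 fragments in the knockdown libraries and 104 and 107 in the controls, of which KRT18P34 had 38 and 33 against 58 and 51. Adding the copies moved the log2 ratio of KRT18 to -1.03 and gave KRT8 a log2 ratio of 0.21. Counting was unstranded, and KRT18 shares 16.3% of its exonic bases with KRT8, so fragments in the shared 525 bp cannot be assigned to a strand. The same holds for 142 bp, 6.94% of the exonic bases of KRT8P12, shared with KPNA4 on the opposite strand. KPNA4 had 3896 and 4394 fragments in the knockdown libraries and 4000 and 3707 in the controls.

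**Figure D2:**
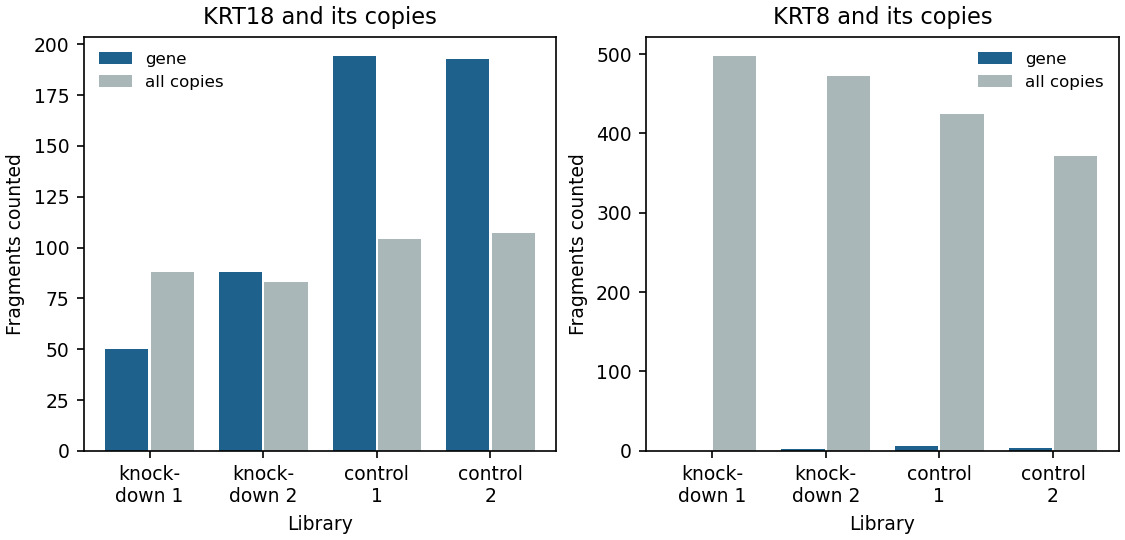
Fragments counted for KRT18 (left panel) and KRT8 (right panel), gene in blue and all its annotated copies in grey, knockdown libraries before control libraries. KRT18 shows 50 and 88 fragments in the knockdown libraries against 194 and 193 in the controls, whereas for KRT8 nearly all fragments sit in the copies.

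MUC1 encodes a heavily glycosylated transmembrane mucin that is also a known myeloma antigen (ENSG00000185499, chromosome 1, 155158300 to 155162707). It had 9.7 and 12.7 CPM in knockdown libraries 1 and 2 and 24.7 and 30.5 CPM in control libraries 1 and 2. In each group number 2 was the higher library, and the groups stood far apart. The means were 11.2 ± 2.11 and 27.6 ± 4.11 CPM (SD, n = 2 each), with a log2 fold change of -1.30 (SE 0.157).

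VIL1 encodes villin, which bundles actin in the microvilli of gut and kidney epithelium (ENSG00000127831, chromosome 2, 219283815 to 219318018). It had the widest difference of the 8 tested genes, with 1.59 and 2.4 CPM in the knockdown libraries, 77 and 130 fragments, against 11.9 and 16.4 CPM in the controls, 601 and 772 fragments. The log2 fold change was -2.82 (SE 0.227), and the log2 ratio was -2.90 within number 1 and -2.77 within number 2. VIL1 shares 3045 bp, 44% of its exonic length, with USP37 on the opposite strand, so without strand part of its fragments cannot be assigned. USP37 itself had 1057 and 1200 fragments in the knockdown libraries and 1087 and 1584 in the controls.

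ESRP1 behaved differently from the other genes with a sizeable difference. It had 8.58 and 2.47 CPM in knockdown libraries 1 and 2, against 17.5 and 5.11 CPM in control libraries 1 and 2 (ENSG00000104413, chromosome 8, 95653302 to 95719694). The groups overlapped, and in each the library numbered 1 was the higher. The log2 fold change of -1.05 carried an SE of 0.569, while the log2 ratio within number 1 was -1.03 and within number 2 was -1.05. Leaving out 1 library gave 0.11 without control 1, -1.68 without control 2, -2.19 without knockdown 1 and -0.41 without knockdown 2. Each of these fits compares groups that no longer hold the same library numbers. With the library number as a replicate block, the log2 fold change of ESRP1 was -1.04. ESRP2, its paralog (ENSG00000103067, chromosome 16, 68263014 to 68272005), was near the limit of detection, with 10 and 12 fragments in the knockdown libraries and 11 and 8 in the controls. Its groups overlapped, with a log2 fold change of 0.14 (SE 0.441).

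The number of the library gives a contrast that did not choose the genes, and it can be tested. The labels do not say what equal numbers share. With terms for group and number, 4 libraries leave little spread per gene to estimate, so these p-values lean on spread shared across genes. With group as a term in edgeR, number 2 over number 1 called 608 of 17172 genes (3.54%), among them 2 of the 8 tested here. ESRP1, 1 of the 268 genes lower in number 2 (1.56%), was lower there by a log2 ratio of -1.79 (SE 0.13, adjusted p = 8.99e-09), the second smallest p of all genes and rank 14 by size. In number 1 it was 3.48-fold higher than in number 2 among the knockdown libraries and 3.43-fold higher among the controls. The call held under the 6 alternatives run, at adjusted p from 3.99e-37 to 5.2e-06. VIL1 went the other way, among the 340 genes higher in number 2 (1.98%), with a log2 ratio of 0.50 (SE 0.136, adjusted p = 0.041), a call lost with library-size scaling and with DESeq2 (range 0.0159 to 0.407). MUC1 had a log2 ratio of 0.34 (edgeR adjusted p = 0.0549) and passed with a filter of 1 CPM and when GC content and length were modelled (range 0.0106 to 0.447). The remaining 5 genes did not pass, at adjusted p of 0.133 for EPCAM, 0.335 for F11R, 0.337 for CDH1, 0.491 for KRT18 and 0.947 for ESRP2.

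**Figure D3:**
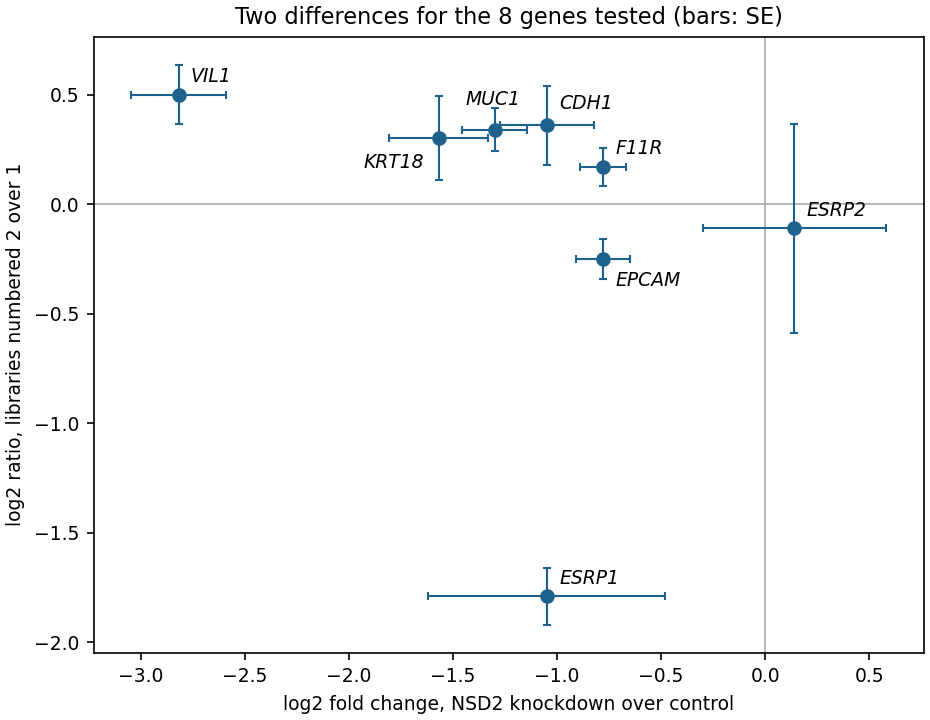
Log2 fold change of NSD2 knockdown over control (horizontal) and log2 ratio of libraries numbered 2 over 1 (vertical) for the 8 tested genes, with SE bars from edgeR. VIL1 lies farthest left at -2.82, and ESRP1 stands alone at the bottom at -1.79.

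Other epithelial genes of known role, none of them among the 9, were counted in the same fit. These lists were drawn up with earlier results of these data known, so the direction of their counts is not independent evidence. Of 207 such genes, 103 had enough counts to be tested and 60 had no fragment in any library. At an adjusted p below 0.05, 19 were lower in the knockdown libraries and 0 were higher, 18.4% of those tested against 4.19% of all genes. The list had a median log2 fold change of -0.21, and 77 of the 103 had a negative one. With no filter on low counts 35 of 147 tested fell and 2 rose, beside 1490 lower and 658 higher among all 31645 genes tested. With the library number as a replicate block 40 of the 103 fell and 5 rose, though the labels name no pairing. That fit called 1992 lower and 1327 higher among all 17172 genes tested. In number 2 over number 1, 3 of the 103 were lower and 6 higher, where 1.56% of all genes tested were lower and 1.98% higher.

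Junction genes were among those that fell. Of 11 tested adherens junction genes 2 fell, of 27 tight junction genes 3 and of 8 desmosome genes 3. In that order, the lists had median log2 fold changes of -0.03, -0.45 and -0.34, with 6, 19 and 7 genes below 0. DSG2, the desmosomal cadherin desmoglein 2, had 57.5 and 52.7 CPM in the knockdown libraries and 83.9 and 87.2 CPM in the controls (log2 fold change -0.63, SE 0.0941, edgeR adjusted p = 0.00517). JAM3, a relative of F11R, had 4.16 and 4.15 CPM in the knockdown libraries against 6.57 and 7.68 CPM in the controls (edgeR adjusted p = 0.0225). The plakin gene PPL (-0.95), the desmosome-linked gene PERP (-0.49), the scaffold gene PATJ (-1.75), vinculin VCL (-0.48) and N-cadherin CDH2 (-1.10) also fell, with these log2 fold changes. CDH2 is known as a mesenchymal cadherin, and per length CDH1 stood at 0.933 and 1.63 times its level in the knockdown libraries and 1.13 and 1.25 times in the controls.

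Most keratins had no fragments, with 37 of 53 other keratin genes at 0 in all 4 libraries and 6 tested. The median log2 fold change of these 6 was -0.01. KRT80 fell, with 12.7 and 14.7 CPM in the knockdown libraries and 21.4 and 28.9 CPM in the controls (log2 fold change -0.87, edgeR adjusted p = 0.0112). The mucin list had 7 tested genes, not all of them MUC genes, with a median log2 fold change of -0.15. Its 1 lower call was MUC13, a transmembrane mucin of the gut, which fell the most of the list genes named here. It had 1.03 and 1.47 CPM in the knockdown libraries, against 6.17 and 7.04 CPM in the controls (-2.39, SE 0.215, edgeR adjusted p = 0.000591). Of 24 tested villin relatives and microvillus genes, with a median log2 fold change of -0.35, 4 fell. They were the capping protein gene CAPG, BAIAP2L1 (-0.72), the supervillin gene SVIL (-0.68) and the fimbrin gene PLS3 (-0.39). CAPG had 11.5 and 16.5 CPM in the knockdown libraries and 30.4 and 34 CPM in the controls (-1.20, edgeR adjusted p = 0.00306). PLS3 lay close to the threshold (edgeR adjusted p = 0.0487) and was not followed through the alternatives.

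Of 9 tested partners and proteases of EPCAM, 2 fell. As a list they had a median log2 fold change of 0.06, with 4 of the 9 below 0. ST14, the membrane protease matriptase that cleaves EPCAM, had 131 and 122 CPM in the knockdown libraries and 197 and 172 CPM in the controls (-0.55, edgeR adjusted p = 0.0137), and its inhibitor gene SPINT1 had 0.31 and 0.442 CPM against 0.89 and 1.4 CPM in the controls (-1.59). Of 11 tested epithelial transcription factors, with a median log2 fold change of -0.30, 3 fell. FOXA1, a pioneer factor, had 0.579 and 0.479 CPM in the knockdown libraries and 2.02 and 1.97 CPM in the controls (-1.91, edgeR adjusted p = 0.00302), beside ELF3 (-1.08) and OVOL2 (-0.84), a repressor of mesenchymal genes. Of the 18 genes so named by rule, 9 passed under every alternative, and they were JAM3, DSG2, PPL, KRT80, MUC13, CAPG, ST14, FOXA1 and ELF3. The calls of 6 were lost only without 1 knockdown library, among them PERP without knockdown 1, CDH2, OVOL2 and BAIAP2L1 without knockdown 2 and VCL without either of them. PATJ and SPINT1 were lost with DESeq2 and without control 2, and SVIL when GC content and length were modelled and without knockdown 2. Genes that overlap exons of others, so that unstranded fragments are uncertain, include JAM3 (8.53% of its exonic bases), BAIAP2L1 (14%) and ELF3 (16.9%).

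In the mesenchymal list of 29 genes, 1 of 19 tested rose and 0 fell, where 1.74% of all genes tested rose and 4.19% fell. CDH2, which fell, was placed with the adherens junction genes and is not in this count. ZEB2, which encodes a repressor of CDH1 in epithelial to mesenchymal transition, had 6.04 and 4.72 CPM in the knockdown libraries and 2.29 and 2.76 CPM in the controls (log2 fold change 1.09, SE 0.199, edgeR adjusted p = 0.0124, range 2.8e-06 to 0.0214). Its groups did not overlap. The counts for the list were 3 higher and 1 lower without control 2, 2 and 1 without knockdown 1, and 1 and 1 without control 1 or without knockdown 2. With no filter on low counts they were 2 higher and 2 lower of 27 tested, where all 31645 genes tested gave 658 and 1490. With GC content and length modelled they were 3 and 0 of 19, where all 16533 genes tested gave 436 and 660. With the library number as a replicate block they were 4 higher and 3 lower of 19, where all 17172 genes tested gave 1327 and 1992. Among 16 tested splicing factors with targets or partners in common with the ESRPs, 0 passed in either direction, and the most abundant, SRSF1 and HNRNPF, had log2 fold changes of 0.05 (edgeR adjusted p = 0.813) and 0.08 (0.692).

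**Figure D4:**
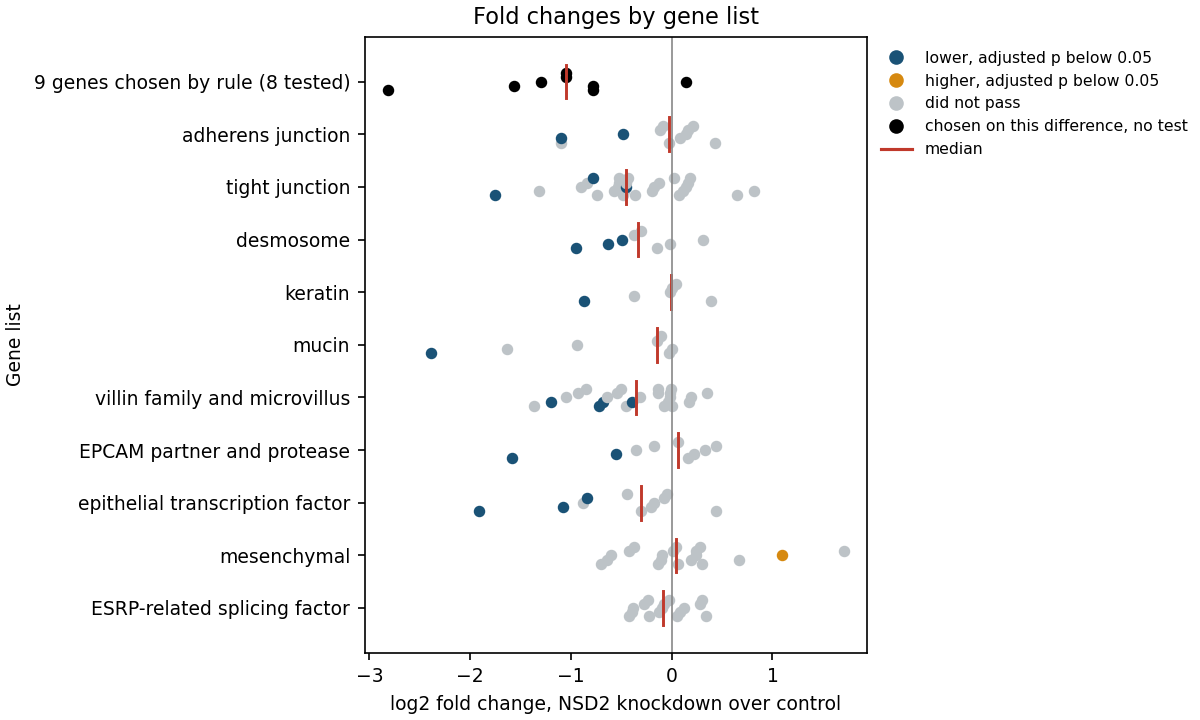
Log2 fold change of NSD2 knockdown over control for each tested gene, by list, with genes called lower in blue, called higher in orange, not passed in grey, the 8 tested of the 9 chosen genes in black and the list median as a red line. All 19 calls in the epithelial lists lie left of 0, and ZEB2 at 1.09 is the single call to the right.

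Genes whose profile over the 4 libraries lay nearest to the mean profile of the 8 tested genes were sought among 9906 genes that code for protein and averaged 5 CPM or more. By root mean square distance of centred log2 CPM they were FAM171B (0.042), ARHGAP44 (0.0436), BAMBI (0.046), CPNE2 (0.0559) and ERO1B (0.0662). BAMBI, for one, had 7.11 and 7.3 CPM in the knockdown libraries and 18.2 and 15.8 CPM in the controls. PLXNA4 (0.476), PRSS1 (0.487) and KLHL29 (0.507) lay nearest to VIL1 alone. For ESRP1, looked up after its values were seen, they were THAP10 (0.463), NXPH4 (0.488) and SLC6A9 (0.5), the last with 83 and 47.6 CPM in knockdown libraries 1 and 2 and 152 and 89.4 CPM in control libraries 1 and 2.

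In the authors' deposited table, the log2 fold change of VIL1 was -2.72 (SE 0.416), of MUC1 -1.27 (0.248), of KRT18 -1.52 (0.401) and of ESRP1 -0.75 (0.996). The authors' deposited table gave KRT8 -1.44 with an SE of 1.05. Base means in the authors' deposited table did not differ by a common factor from the mean fragments over the 4 libraries used here. They were 205 against 395 for VIL1 and 2032 against 2860 for F11R, but 21.2 against 10.2 for ESRP2. That table also holds 4 count columns, which were not used, so the libraries behind it were not checked here.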

How the data were processed

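RNA was sequenced in 4 libraries of KMS11. The deposited counts are whole fragments for each Ensembl gene, with no scaling. The submitters' processing notes name GRCh37, STAR 2.5.3, Trim Galore 0.3.7, Picard and featureCounts (Subread 1.4.6). Per the file headers, pairs were counted without strand from alignments named as freed of duplicates. The authors' deposited DESeq2 table supplied symbols for 36551 genes, coordinates, exonic length, a log2 fold change with its SE, and a base mean, a scaled signal. Its 4 count columns and 1 blank line per count file were not used.

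Counts were tested with the quasi-likelihood test of edgeR 4.0.16 in R 4.3.3 (TMM scaling, default filter, group as the term, Benjamini and Hochberg over 17172 genes, adjusted p below 0.05). The filter keeps genes high in 1 group alone. The coefficient of biological variation was 9.81%. Log2 CPM used a prior count of 2. Gene types came from GENCODE 29, which matched 50409 identifiers, and promoters from RefSeq, whose table held MUC1 and KRT8. The members and lists were chosen with earlier results of these data known. Named genes were the 9 members, NSD2, the nearest profiles and genes of each list. In each list these were up to 3 genes called per direction by smallest adjusted p (where none passed, the 2 highest by FPKM). PLS3, KRT8P12, KRT18P34, USP37, KPNA4 and vimentin were named after their values were seen. So were the markers CD38, SLAMF7, GPRC5D, JCHAIN, ESR1, KRT7, GATA3, SIX2 and LGALS4. Not reported here are 1 gene named by this rule and 1 sequence. Alternatives were RLE and library-size scaling, no filter, a filter of 1 CPM, DESeq2 1.42.0, a replicate block, copies added, each library left out, and, added after seeing the data, terms for GC content and length. The procedure was tested on simulated data. Figures used matplotlib 3.10.9.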

Additional observations from a re-analysis of the deposited data

How the results depend on the processing

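Without a filter on low counts 658 genes were called higher and 1490 lower, in place of 299 and 719; the epithelial list then had 2 higher and 35 lower, and the mesenchymal list 2 and 2. With the library number as a replicate block, 1327 genes were higher and 1992 lower (60% of calls lower, against 70.6%), with 5 higher and 40 lower in the epithelial list and 4 and 3 in the mesenchymal list. Deviations of libraries with equal numbers correlated at 0.236 over 17172 genes, a hint from the data, since the labels name no pairing. Terms for GC content and length brought the share of lower calls to 60.2% (436 higher, 660 lower), left 18 lower calls in the epithelial list and gave 3 higher calls in the mesenchymal list. Without any single library, 173 to 682 genes were higher and 649 to 1342 lower. The epithelial list then had 0 to 3 higher and 15 to 32 lower, the 32 without control 1, and the mesenchymal list 1 to 3 higher and 1 lower. In those fits the remaining single library was taken to vary as much as the group of 2. For number 2 over number 1, 340 genes higher and 268 lower became 225 higher with library-size scaling, 545 higher with a filter of 1 CPM, 82 and 89 with DESeq2, and 541 and 553 with GC content and length terms. The cause of these shifts was not tested. VIL1, EPCAM, KRT18, MUC1, F11R and CDH1 were lower in knockdown over control under each of the 11 alternatives and ESRP1 under 10. These genes were picked on that difference, and the alternatives refit the same 4 libraries. The shared sign is therefore not a result about them. With 2 libraries per group and counts of 12 or fewer, ESRP2 and KRT8 allow no statement on a difference.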
